A study of Mus musculus with 6 samples.

Results

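The 6 natural killer receptor genes Klrb1c, Klrc1, Klrc2, Klrd1, Klrk1 and Cd160 were followed in mouse invariant natural killer T (iNKT) cells, as 6 of the 27998 genes in the tables, taken by their symbols. iNKT cells are T cells with a semi-invariant receptor that recognises lipids on CD1d. Single-cell RNA-seq (scRNA-seq) of sorted iNKT cells from liver, spleen and lymph node gave 2 libraries per organ. All mice were C57BL/6, labelled WT and 5 weeks old. Every library held cells left after depletion with antibodies to CD8 and B220, then sorted as positive for TCR-β and for binding of a CD1d tetramer. The study's methods call the 2 libraries of an organ biological repeats. How many mice went into a library is not given in the sources used here, and p-values measure the spread between these libraries. The labels name the molecule as nuclear RNA, although a whole-cell 3′ kit is described.

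Klrb1c, Klrc1, Klrc2, Klrd1 and Klrk1 encode C-type lectin-like receptors of the natural killer gene complex. Klrb1c encodes NK1.1, the antigen by which natural killer and mature type 1 iNKT cells of C57BL/6 mice are recognised. Klrd1 encodes CD94, which pairs with NKG2A (Klrc1), an inhibitory receptor, or with NKG2C (Klrc2), an activating one. Both dimers bind Qa-1, the product of H2-T23. Klrk1 encodes NKG2D, an activating receptor that signals through the adaptor Hcst and binds stress-induced ligands of the Raet1, H60 and Ulbp families. Cd160 is not a lectin but a receptor of the immunoglobulin superfamily that binds Tnfrsf14, the herpesvirus entry mediator.

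In GENCODE vM21 (GRCm38, also called mm10), Klrd1 (ENSMUSG00000030165, chr6:129591782-129598775) lies on the plus strand. The minus strand next to it holds Klrk1 (ENSMUSG00000030149, chr6:129610323-129623864), Klrc2 (ENSMUSG00000052736, chr6:129647496-129660689) and Klrc1 (ENSMUSG00000030167, chr6:129666015-129678973). These 4 genes span 87.2 kb. Klrb1c (ENSMUSG00000030325, chr6:128778485-128789215, minus strand) ends 802.6 kb before Klrd1 begins. Cd160 (ENSMUSG00000038304, chr3:96798763-96829351, minus strand) is on another chromosome. Klrb1c overlaps Gm44511 on its own strand, and Cd160 overlaps Pdzk1 on the opposite strand. Whether counting used strand is not given in the sources used here. It is therefore not known whether reads of Cd160 and Pdzk1 were kept apart where they overlap.

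Promoter windows of 300 bases, from 250 bases before to 50 after the start, were taken from RefSeq (GRCm38.p6). They covered 5 of the 6 genes with 7 windows, of which the 2 of Klrc2 overlap. Klrd1 had no entry. The windows of 4 genes are shown. Klrc1 and Klrc2 were the pair with the highest odds ratio of detection in the same cell, and Klrk1 and Cd160 were the genes with the least similar pattern over cell classes. Capitals mark matches on either strand to the T-box letters TCACAC, the Runx letters TGTGGT or the ETS letters AGGAAG, and each sequence reads 5′ to 3′ on the minus strand.
Klrc1 (chr6:129678924-129679223): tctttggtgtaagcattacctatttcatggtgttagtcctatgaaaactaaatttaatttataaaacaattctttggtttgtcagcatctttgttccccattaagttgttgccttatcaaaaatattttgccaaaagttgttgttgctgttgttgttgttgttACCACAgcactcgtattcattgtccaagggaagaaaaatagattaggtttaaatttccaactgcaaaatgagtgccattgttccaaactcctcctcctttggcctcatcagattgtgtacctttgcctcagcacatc
Klrc2 (chr6:129660547-129660846): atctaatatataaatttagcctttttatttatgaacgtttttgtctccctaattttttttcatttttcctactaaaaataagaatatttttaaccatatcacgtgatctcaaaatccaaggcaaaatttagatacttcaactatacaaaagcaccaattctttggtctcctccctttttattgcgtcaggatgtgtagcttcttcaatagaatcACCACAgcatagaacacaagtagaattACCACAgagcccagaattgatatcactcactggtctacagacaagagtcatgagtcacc
Klrk1 (chr6:129623815-129624114): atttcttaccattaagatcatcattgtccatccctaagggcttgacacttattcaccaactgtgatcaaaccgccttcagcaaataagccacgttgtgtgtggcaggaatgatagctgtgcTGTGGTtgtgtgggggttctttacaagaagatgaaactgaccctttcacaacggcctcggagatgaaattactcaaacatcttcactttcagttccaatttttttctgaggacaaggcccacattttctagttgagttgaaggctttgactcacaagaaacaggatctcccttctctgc
Cd160 (chr3:96829302-96829601): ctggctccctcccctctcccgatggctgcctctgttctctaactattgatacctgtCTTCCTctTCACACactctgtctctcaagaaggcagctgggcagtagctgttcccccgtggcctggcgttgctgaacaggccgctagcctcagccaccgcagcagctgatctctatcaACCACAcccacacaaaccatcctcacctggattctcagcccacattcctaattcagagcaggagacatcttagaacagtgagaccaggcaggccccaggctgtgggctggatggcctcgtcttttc

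The Runx letters were found in all 7 windows of the 5 genes, against 16.8% of the 32851 promoter windows in the table. The T-box letters were found in 2 of the 7 windows, both of Cd160, against 14.5% of all windows. The ETS letters were found in 3 of the 7, those of Klrb1c and Cd160, against 35.4%. A match is a description of the letters and not of binding.

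The tables held 16587 barcodes, of which 16532 were kept. A library held 2638 to 2861 kept cells and 4758138 to 10870838 unique molecular identifiers (UMIs). Median depth per cell was 2880 and 3592 for liver, 1554 and 1724 for spleen and 1470 and 1730.5 for lymph node. Of the kept cells of a library, 99.2% to 99.7% had a UMI of Cd3d, Cd3e or Cd3g, which encode the CD3 chains of T cells. Xist had 5401 to 10404 UMIs in each liver and spleen library and 0 in both lymph node libraries, while 5 Y-linked genes reached 1365 and 1582 UMIs in those libraries and 0 elsewhere. Organ and sex of the mice therefore cannot be told apart in any comparison with lymph node. A list of 6 natural killer and ILC1 markers summed to 36.8 and 35.0 CPM (UMIs scaled to a common library total) for liver, 7.3 and 9.8 for spleen and 8.4 and 7.2 for lymph node. Most of the liver sum came from Itga1 (16.1 and 12.5 CPM) and Gzmc (14.7 and 14.2 CPM). In spleen these had 2.08 and 3.36 CPM and 1.30 and 1.96 CPM. Ncr1 had 3.82 and 7.42 CPM in liver and 2.08 and 1.96 in spleen. Klra8 and Klra4 had at most 2.24 CPM in any library. Eomes, a natural killer marker of the list, had 0 UMIs in both liver libraries and at most 2 in any other. The part of natural killer or ILC1 cells in the results was not tested. Of the barcodes, 148 occurred in more than 1 library (299 kept cells).

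Expression of the 5 lectin-like receptors and Cd160 was lowest in lymph node for every gene. Relative to spleen, liver had more Klrb1c, Klrc1, Klrc2 and Klrk1, whereas Klrd1 and Cd160 were not called. In the sums over all cells, levels are CPM, after ribosomal, ribosomal RNA and haemoglobin genes were left out. In such sums, fewer cells that express a gene and less RNA per cell cannot be told apart. Shares of cells with a UMI were counted after each cell was thinned to 1000 UMIs, because liver cells were deeper.

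Klrb1c was counted with 2649 and 2369 UMIs (liver), 879 and 736 (spleen) and 366 and 310 (lymph node). Its level was 383 ± 11.2 CPM for liver, 217 ± 16.1 for spleen and 92.4 ± 9.37 for lymph node (mean ± SD, n = 2 libraries per organ). The 3 organs did not overlap. The fold was 0.74 ± 0.11 on the log2 scale (± SE) for liver over spleen (edgeR adjusted p = 1.43e-05), 2.00 ± 0.12 for liver over lymph node (adjusted p = 5.11e-15) and, with spleen set against lymph node, 1.26 ± 0.12 (adjusted p = 1.2e-09). At 1000 UMIs, 22.8% ± 1.44 of liver cells, 15.9% ± 1.29 of spleen cells and 6.27% ± 0.364 of lymph node cells had a Klrb1c UMI. Without thinning the shares were 50.8% and 48.7%, 24.1% and 20.8%, and 10.6% and 8.64% of the cells of the libraries in that order. As a background, 1.72% and 2.51% of iNKT17-like lymph node cells (clusters at Leiden resolution 0.5), a class low in Klrb1c, had a UMI at 1000 UMIs (median depth 1977 and 1700 UMIs before thinning). In the liver libraries the class held 23 and 36 cells, of which 17.4% and 5.56% had a Klrb1c UMI after thinning (269 and 159 CPM), so the lymph node background cannot be carried over to liver. Shares and the intervals behind them cover counting error only.

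Klrd1, the shared chain of the CD94 dimers, had 2894 and 2855 UMIs for liver, 1429 and 1399 for spleen and 476 and 451 for lymph node. The levels were 440 ± 43.4 CPM for liver, 382 ± 13.9 for spleen and 127 ± 2.84 for lymph node. Lymph node lay far below, and both liver libraries (409.5 and 471 CPM) lay above both spleen libraries (372 and 392 CPM), a difference that was not called (log2 fold 0.13 ± 0.12, edgeR adjusted p = 0.432). Klrd1 was higher in liver than in lymph node by 1.74 ± 0.12 and in spleen than in lymph node by 1.61 ± 0.12 (log2, edgeR adjusted p = 1.83e-13 and 3.50e-12). The share of thinned cells with a Klrd1 UMI was 21.6% ± 2.30 for liver, 18.6% ± 0.462 for spleen and 6.53% ± 0.483 for lymph node, and was 1.23% and 1.67% in iNKT17-like lymph node cells.

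Klrc1, the inhibitory partner, had 2203 and 2039 UMIs for liver, 655 and 600 for spleen and 167 and 189 for lymph node, or 324 ± 17.4, 169 ± 1.80 and 48.7 ± 5.02 CPM. By fold it differed most between liver and lymph node of the 6 genes, and no 2 organs overlapped. The log2 fold was 0.86 ± 0.11 for liver over spleen, 2.68 ± 0.13 for liver over lymph node and 1.82 ± 0.13 for spleen over lymph node (edgeR adjusted p = 1.47e-06, 9.78e-18 and 7.34e-13). Of cells thinned to 1000 UMIs, 15.6% ± 1.30 for liver, 9.84% ± 0.203 for spleen and 2.56% ± 0.0797 for lymph node had a Klrc1 UMI. The unthinned means were 28.2% ± 0.698, 12.8% ± 0.538 and 3.65% ± 0.0944.

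Klrc2, the activating partner, moved like Klrc1. It had 1074 and 835 UMIs for liver, 331 and 246 for spleen and 103 and 76 for lymph node, or 145 ± 10.1, 77.5 ± 12.2 and 24.4 ± 4.84 CPM. The organs did not overlap, and the log2 folds were 0.82 ± 0.13, 2.51 ± 0.15 and 1.68 ± 0.16 in the same order (edgeR adjusted p = 1.94e-05, 3.04e-15 and 4.70e-10). Klrc1 and Klrc2 are near-identical in part. Of all windows of 110 bases (the length of read 2) in the Klrc1 transcripts, 11.2% also occur in a Klrc2 transcript, and of those in Klrc2, 3.77% occur in Klrc1. How the counting treated such reads is not given in the sources used here, so the division of reads between these 2 genes is uncertain. A Klrc2 UMI was found in 9.30% ± 0.0314 of thinned liver cells, 5.38% ± 0.326 of spleen cells and 1.33% ± 0.144 of lymph node cells. Unthinned means were 20.4% ± 3.1, 7.63% ± 0.666 and 2.38% ± 0.232.

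Klrk1 had 3794 and 3124 UMIs for liver, 1341 and 1349 for spleen and 779 and 876 for lymph node. The levels were 526 ± 15.3, 363 ± 20.2 and 226 ± 22.3 CPM, again with no overlap. Its folds were the smallest of the 6 against lymph node, at 1.16 ± 0.12 for liver and 0.70 ± 0.12 for spleen (log2, edgeR adjusted p = 1.07e-09 and 3.16e-05). For liver over spleen the log2 fold was 0.46 ± 0.12 (edgeR adjusted p = 0.00375). Without spleen replicate 1 it was 0.38 and no longer called (edgeR adjusted p = 0.0710). At 1000 UMIs, a Klrk1 UMI was seen in 23.8% ± 0.879 (liver), 18.4% ± 1.18 (spleen) and 12.7% ± 0.339 (lymph node) of cells, against unthinned means of 42.4% ± 2.36, 24.8% ± 1.09 and 18.9% ± 0.0160.

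Cd160 was the one gene whose mean was highest in spleen. It had 2675 and 2309 UMIs for liver, 1826 and 1390 for spleen and 468 and 386 for lymph node, or 380 ± 1.63, 432 ± 61.0 and 117 ± 14.0 CPM. The spleen libraries (475 and 389 CPM) both lay above the liver libraries (379 and 381 CPM), but the log2 fold of liver over spleen of -0.26 ± 0.12 was not called (edgeR adjusted p = 0.100). It was called without the 5% of cells with the most UMIs (-0.35, edgeR adjusted p = 0.0285). Both liver (1.65 ± 0.13) and spleen (1.91 ± 0.13) were above lymph node on the log2 scale (edgeR adjusted p = 1.34e-12 and 9.82e-14). At 1000 UMIs, 26.8% ± 2.86 of spleen cells, 21.7% ± 1.2 of liver cells and 7.50% ± 0.539 of lymph node cells had a Cd160 UMI. Without thinning, the mean was higher in liver (48.5% ± 4.07) than in spleen (39.8% ± 3.69), so the order of these organs by share depends on depth, and the CPM gave the order of the thinned shares.

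**Figure D1:**
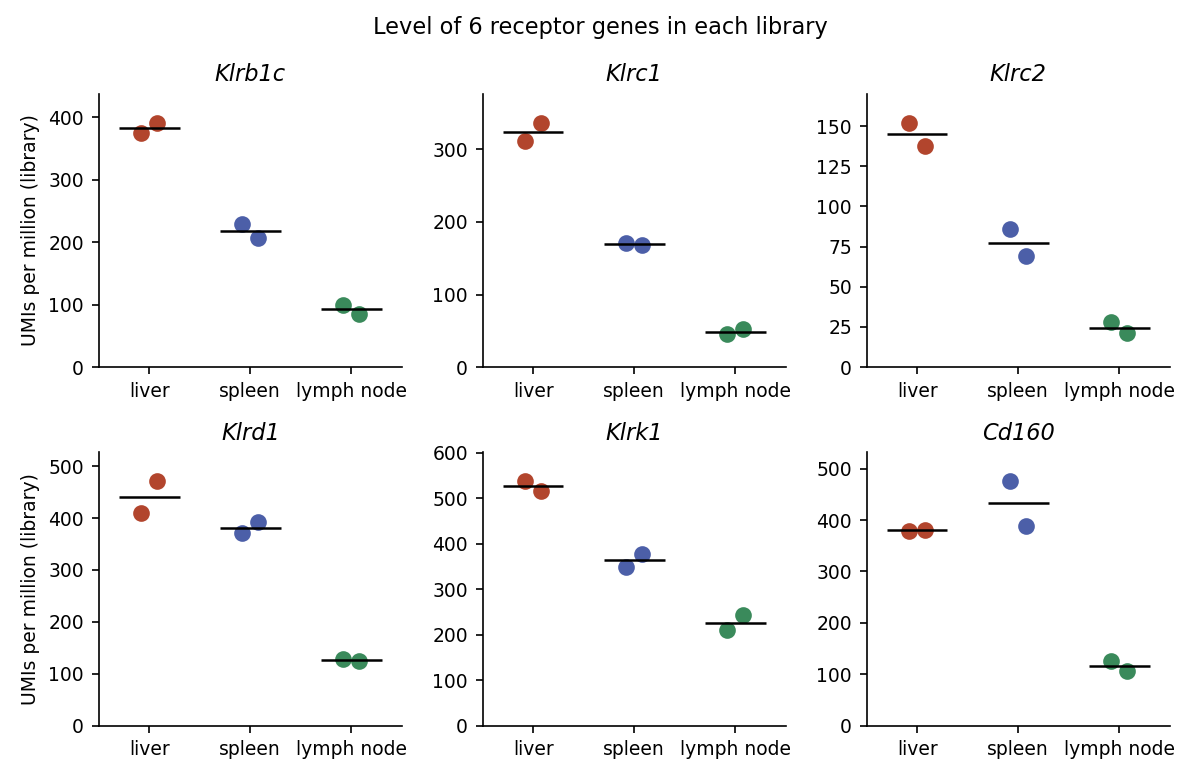
Level of each gene in CPM (vertical axis, from 0) in the 6 libraries, with 1 point per library and a line at the mean of each organ. All 6 genes are lowest in lymph node, and Cd160 alone has its highest mean in spleen.

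Of the 6 genes, 4 were called higher in liver than in spleen, where 12.7% of the 10174 tested genes were called higher in liver and 25.8% were called in either direction. All 6 were called higher in liver than in lymph node, against 18.0% of the tested genes (37.6% in either direction). All 6 were likewise called higher in spleen than in lymph node, against 7.98% (18.3% in either direction, 10.3% lower). The median log2 fold over all tested genes was 0.02, 0.01 and 0.0045 in the 3 comparisons. These comparisons share libraries and are not independent of each other.

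iNKT17-like cells, a subset that makes interleukin-17, were 861 and 1020 of the lymph node cells but at most 53 cells of any other library, and they held little of most of the 6 genes. With these cells left out, all 6 genes were still called higher in liver (15.6% of tested genes called higher, 31.9% in either direction) and in spleen (4.68% and 11.9%) than in lymph node. The log2 fold of liver over lymph node was then 1.54 ± 0.12 for Klrb1c, 2.06 ± 0.13 for Klrc1, 1.89 ± 0.15 for Klrc2, 1.17 ± 0.12 for Klrd1, 0.89 ± 0.12 for Klrk1 and 1.16 ± 0.12 for Cd160. Each was smaller than over all cells. That setting was chosen after the data had been seen.

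The same libraries were then compared over iNKT1-like cells alone, a class rebuilt here from Tbx21, Il2rb, Cxcr3, Nkg7 and other markers without any Klr gene or Cd160. The class held 4082 liver and 3717 spleen cells, from clusters that were mostly liver or mostly spleen, but only 112 and 154 cells of the lymph node libraries. Liver iNKT1-like cells had more Klrb1c (446 ± 25.5 against 297 ± 17.8 CPM), Klrc1 (357 ± 34.8 against 216 ± 10.5) and Klrc2 (156 ± 5.27 against 92.3 ± 13.8) than those of spleen. The log2 folds were 0.51 ± 0.13, 0.65 ± 0.13 and 0.68 ± 0.14 (edgeR adjusted p = 0.000997, 1.77e-05 and 3.10e-05). Cd160 went the other way, with 402 ± 10.9 CPM in liver and 578 ± 77.7 in spleen (log2 fold -0.60 ± 0.13, edgeR adjusted p = 5.66e-05).

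Klrd1 (439 ± 32.1 CPM in liver, 433 ± 33.8 in spleen) and Klrk1 (540 ± 14.7 and 427 ± 50.7) were not called between liver and spleen iNKT1-like cells (edgeR adjusted p = 0.764 and 0.140). Thus 4 of the 6 genes were called in this class, 3 of them higher in liver, where 22.9% of 9352 tested genes were called in either direction, 11.2% higher in liver and 11.7% lower. Of these, the Klrb1c call was lost without spleen replicate 2 (edgeR adjusted p = 0.0643), and Klrc2 was not called by DESeq2 (adjusted p = 0.620).

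Against lymph node iNKT1-like cells, all 6 genes were called higher in liver (6.37% of tested genes called, 3.27% higher) and 4 higher in spleen (2.57% called, 1.22% higher and 1.35% lower). Klrc1 (adjusted p = 0.0531) and Klrc2 (adjusted p = 0.174) were not called by edgeR for spleen over lymph node. DESeq2 did not call Klrc2 for liver over lymph node (adjusted p = 0.410) or Klrk1 for spleen over lymph node (adjusted p = 0.0658). The median log2 fold of all genes against lymph node was 0.12 in this class. These values rest on few molecules, with 14 Klrc2, 23 Cd160 and 31 Klrb1c UMIs in both lymph node libraries together. Without lymph node replicate 2, 4 genes were called for liver (1.67% of tested genes) and 2 for spleen (0.681%), and the log2 fold of Klrc2 for spleen over lymph node was -0.04, while without lymph node replicate 1 it was 2.96. An unnamed cluster held 1385 and 1401 lymph node cells and 18 to 60 cells of any other library. Its median log2 fold over all other cells was -0.39 for the iNKT1 markers. For a list of iNKT2 markers, such as Gata3 and Icos, it was 0.41. Thresholds set after the clusters had been seen kept this cluster out of the class. With it added, lymph node was represented mostly by these cells. All 6 genes were then called higher in both organs than in lymph node, where 34.7% (liver, 16.7% higher) and 16.1% (spleen, 6.80% higher) of the tested genes were called. When UMI count was not regressed out before clustering, the cluster with most liver cells (4994 cells) went unnamed. The iNKT1-like class then held only 11 and 73 liver and 63 and 40 lymph node cells, beside 1785 and 1733 spleen cells. In that setting only 1542 genes could be tested, of which 3.18%, 2.33% and 2.14% were called. Of the 6 genes, 0 were then called for liver over spleen or liver over lymph node and 1 for spleen over lymph node.

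**Figure D2:**
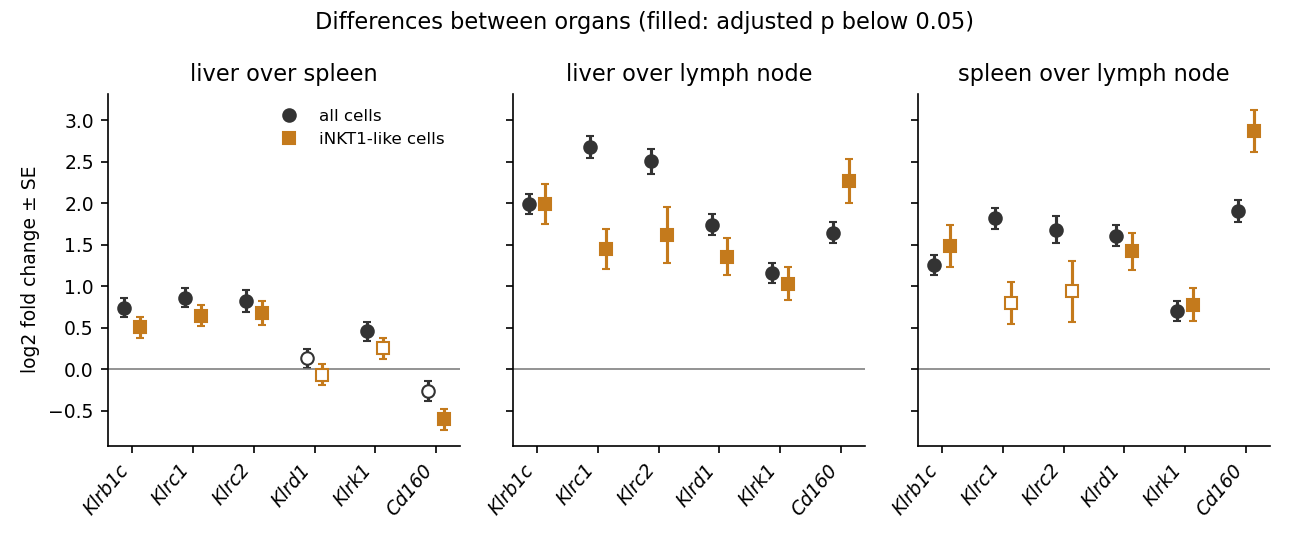
log2 fold change (vertical axis) of each gene in the 3 comparisons, over all cells (circles) and over iNKT1-like cells (squares), with bars of 1 SE and filled marks where the edgeR adjusted p was below 0.05. Cd160 lies below 0 for liver over spleen in both sets of cells, and the bars are longest where lymph node iNKT1-like cells enter.

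Levels were also read within clusters, formed at Leiden resolution 1.0 from genes that did not include the 6 or any other Klr gene. A cluster led by Gzma, Fcer1g, Tyrobp and Ncr1 (Gzma-like, 949 cells) had the highest level of 4 of the 6 genes among the 13 clusters of more than 50 cells. It held 1227 CPM of Klrk1, 1155 of Klrd1, 650 of Klrc1 and 348 of Klrc2 over all libraries together. In the liver-rich iNKT1-like cluster (2914 cells) the same genes had 540, 455, 361 and 155 CPM. Klrb1c (435 CPM in the Gzma-like and 460 in the liver-rich iNKT1-like cluster) and Cd160 (382 and 413 CPM) did not share this gap when libraries were pooled.

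Within the Gzma-like cluster, Klrc1 had 933 and 835 CPM in the liver libraries and 305 and 345 in the spleen libraries. Klrk1 had 1543 and 1336 CPM in liver and 908 and 965 in spleen. Klrd1 did not separate the organs, with 998 and 1317 CPM in liver and 1086 and 1176 in spleen. Cd160 had 427 and 478 CPM in liver and 270 and 268 in spleen, the reverse of its order in iNKT1-like cells. In the spleen-rich iNKT1-like cluster the spleen libraries had 681 and 533 CPM of Cd160, above the Gzma-like cells of the same libraries, while in the liver-rich cluster the liver libraries had 420.3 and 420.0 CPM. No test was run on these values.

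Gzma-like cells were 8.01% of liver and 8.18% of spleen cells, and held 20.1% and 21.1% of the Klrk1 UMIs, 19.6% and 24.2% of the Klrd1 UMIs and 21.5% and 26.0% of the Klrc2 UMIs of these organs. Their part was 20.0% and 15.6% for Klrc1, 9.93% and 11.3% for Klrb1c and 8.9% and 5.09% for Cd160, which in spleen is below their share of cells. They made up 0.98% of lymph node cells. Of the Gzma-like cells, 99.3% had a Cd3 UMI. This cluster also had the highest sum of the 6 natural killer and ILC1 markers (80.9 CPM), with Ncr1 at 38 CPM, Klra8 at 17.2, Itga1 at 14.7, Gzmc at 10.4, Klra4 at 0.61 and Eomes at 0. Cells had been sorted for TCR-β, and the part of natural killer or ILC1 cells in this cluster was not tested.

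iNKT17-like cells (2030 cells, 1888 from lymph node) had low levels of the CD94 dimer genes, most of all in lymph node. Over all libraries they had 6.38 CPM of Klrc1, 3.69 of Klrc2 and 27.9 of Klrd1, yet 158 of Klrk1. In the lymph node libraries, 10.7% and 10.5% of these cells had a Klrk1 UMI at 1000 UMIs per cell, against 0.488% and 0.418% with a Klrc1 UMI. In the unnamed lymph node cluster led by Gm17056 and Dusp1 the shares were 21.3% and 19.7% for Klrk1 and 6.21% and 4.94% for Klrc1. The Klrc1 share of these lymph node cells is read as background at this depth. The few iNKT17-like cells of liver had more. At resolution 0.5, 59 liver cells of the class held 61.1 ± 51.8 CPM of Klrc1 (10 UMIs), 36.6 ± 51.8 of Klrc2 (6 UMIs) and 128 ± 94.9 of Klrd1 (21 UMIs), against 3.76 ± 0.204, 1.89 ± 0.634 and 19.9 ± 0.55 for the 1881 lymph node cells. The liver values vary widely between the 2 libraries.

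Lymph node cells divided further. A cluster led by Ccl1, Nrgn, Pdcd1 and Ccr10 (757 cells, 736 from lymph node) had 9.10 CPM of Klrc1, 10.8 of Klrc2, 29.8 of Klrb1c and 48.8 of Klrd1. Its Cd160 level was 265 CPM, with 282 and 248 CPM in the 2 lymph node libraries. In the Gm17056 and Dusp1 cluster (1984 cells, 1895 from lymph node) Klrk1 (473 CPM), Klrd1 (340 CPM) and Klrb1c (248 CPM) were each above their level in the Ccl1 and Nrgn cluster, where Klrk1 had 89.3 CPM, and Cd160 (166 CPM) was below. That cluster was 34.5% of lymph node cells and held 67.0% ± 2.83 of the lymph node UMIs of Klrb1c, 68.8% ± 0.06 of Klrc1 and 66.2% ± 0.39 of Klrd1 (SD, n = 2). It held 31.9% ± 2.18 of those of Cd160, while the Ccl1 and Nrgn cluster, with 13.5% of the cells, held 36.2% ± 3.87. Leading genes of the larger cluster included the immediate early genes Dusp1, Junb and Nr4a1 and the Y-linked Eif2s3y, and their part in these levels was not tested.

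Cells with genes of recent thymic emigrants, such as Ccr7 and Igfbp4 (RTE-like, 980 cells), were low for all 6 genes with libraries pooled. Levels ran from 13.5 CPM of Klrc2 to 153 of Cd160, and 733 of the cells were from spleen. Klrd1 had 119 and 311 CPM in the liver libraries against 85.7 and 86.7 in spleen. For Klrb1c it was 119 and 171 against 44.8 and 36.0, and for Cd160 119 and 166 against 171 and 155. A smaller RTE-like cluster of 170 cells, led by Dapl1, had 0 UMIs of Klrc2 and 24.7 CPM of Klrk1, but 111 of Klrd1. These low levels depend on the resolution. At 0.5, the cluster named RTE-like from its markers (1935 cells) was led by Gzma and Fcer1g as well as Ccr7 and Igfbp4. With libraries pooled, it had the highest Klrk1 (582 CPM) and Klrd1 (564 CPM) of the 7 clusters with more than 50 cells. Its Klrc1 was 293 CPM. The rank did not hold in the spleen libraries, with 345 and 346 CPM of Klrk1 and 400 and 405 of Klrd1. Spleen cells of the iNKT1-like cluster richest in spleen had 403 and 466 CPM of Klrk1 and 418 and 458 of Klrd1. In the liver libraries the RTE-like cluster had 1167 and 1023 CPM of Klrk1 and 776 and 1046 of Klrd1. Cycling cells (509 at resolution 1.0) had 200 CPM of Klrd1 and 267 of Cd160 beside 64.4 of Klrc1 and 84.5 of Klrb1c.

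**Figure D3:**
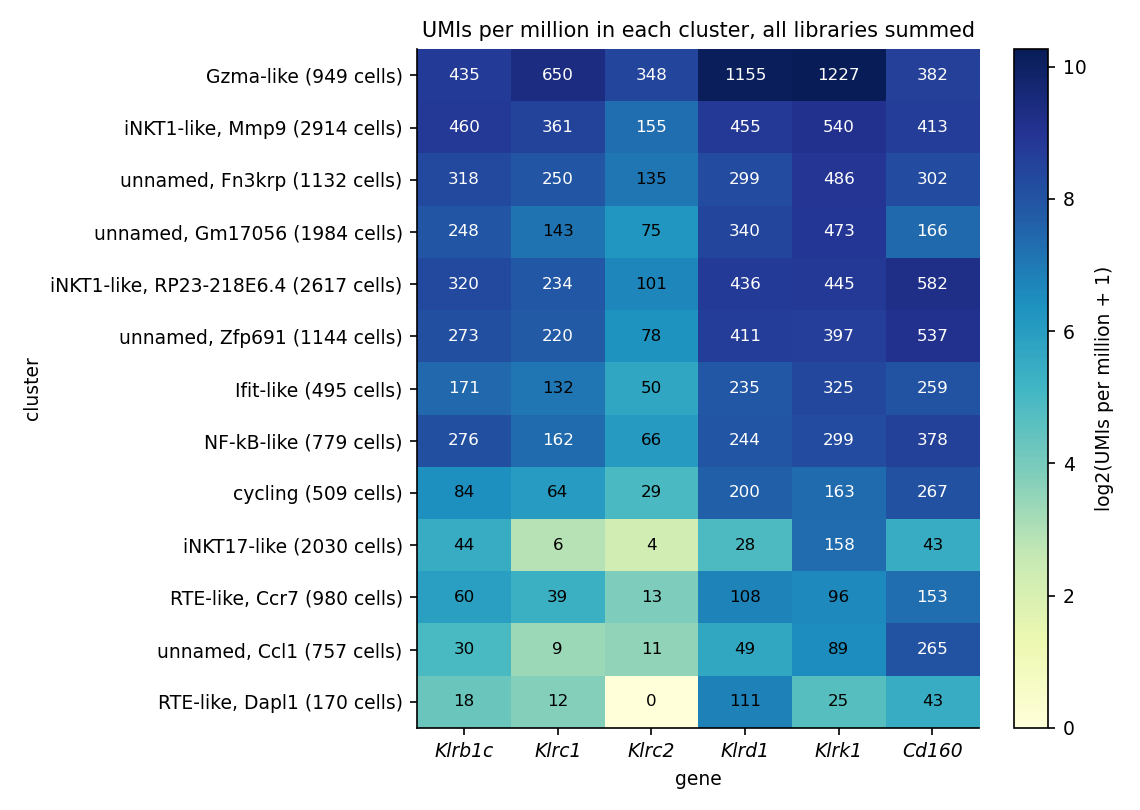
Level of the 6 genes (columns) in the 13 clusters of more than 50 cells at Leiden resolution 1.0 (rows, ordered by Klrk1), as CPM over all libraries summed, printed in each cell and coloured on a log2 scale. The Gzma-like cluster tops Klrk1, Klrd1, Klrc1 and Klrc2, while iNKT17-like and Ccl1-led cells are low in Klrc1 and Klrc2 and differ in Cd160 (43.3 and 265 CPM).

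The genes were next compared cell by cell. For each of the 15 pairs, the odds ratio of detection in 1 cell was computed per library on thinned cells, where 1 means that detection of one gene says nothing of the other. Klrc1 and Klrc2 had the highest median over the 6 libraries (13.2, from 4.87 to 50.4). In liver replicate 1, 104 cells had UMIs of both where 38.1 would be the product of their shares, and in spleen replicate 1 it was 71 cells against 14.5. The lymph node values rest on 17 and 9 cells with both. Reads that fit both genes, described with their transcripts, could add to this pair, and their part was not tested.

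Klrk1 and the CD94 genes followed. The median odds ratio was 5.41 for Klrc2 and Klrk1, 4.78 for Klrc1 and Klrk1, 4.51 for Klrc2 and Klrd1, 4.16 for Klrc1 and Klrd1 and 3.1 for Klrd1 and Klrk1. Klrb1c was linked more loosely to these 4 genes, with medians from 1.81 (Klrk1) to 2.55 (Klrc2). Pairs with Cd160 had medians from 1.25 (Klrd1) to 1.89 (Klrc1). In all, 13 of the 15 pairs were above 1 in all 6 libraries, and the 2 others (Cd160 with Klrb1c and with Klrd1) in 5. These odds ratios are a description of cells that share a library.

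On cells thinned to 1000 UMIs, odds ratios were lowest in liver and highest in lymph node for the pairs among the 5 lectin-like genes. For Klrc1 and Klrd1 they were 2.68 and 2.93 for liver, 3.88 and 4.44 for spleen and 13.3 and 14.3 for lymph node. The order of liver and spleen did not hold for all of these pairs in other sets of cells. Without thinning, Klrd1 and Klrk1 had 3.07 and 3.1 for liver and 2.69 and 2.75 for spleen. Within iNKT1-like cells alone, the mean log2 odds ratio of Klrb1c and Klrk1 was 0.62 for liver and 0.58 for spleen. Klrc1 and Klrc2 had odds ratios in that class of 5.01 and 6.07 for liver and 9.69 and 16.9 for spleen. The lymph node libraries held as few as 0 iNKT1-like cells with both genes of a pair, and replicate 2 had none with a Klrc2 UMI after thinning, so no odds ratio is given for them.

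**Figure D4:**
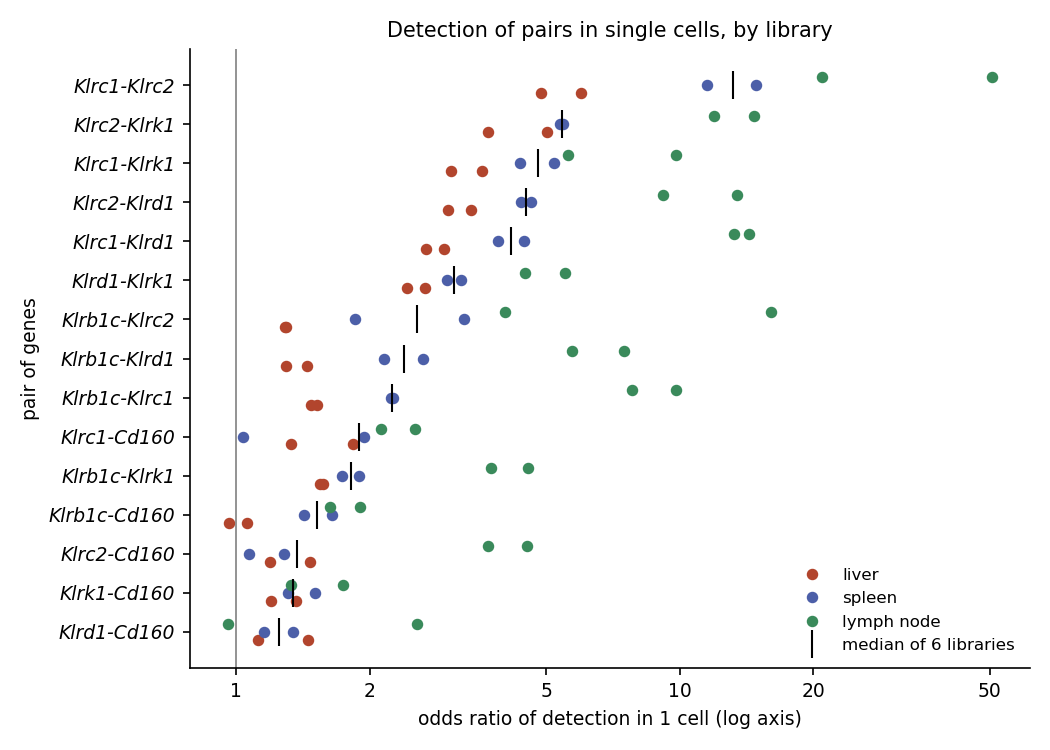
Odds ratio of detecting both genes of a pair in the same cell (horizontal log axis), 1 point per library coloured by organ and a bar at the median of 6 libraries. The Klrc1 and Klrc2 pair is at the top, and 4 of the 5 pairs with Cd160 have the lowest medians.

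Among cells with a Klrd1 UMI, most had a UMI of neither partner at this depth, 63.6% and 61.7% for liver, 69.2% and 69.7% for spleen and 77.9% and 77.4% for lymph node. Klrc1 without Klrc2 was found in 18.0% and 19.5% of the Klrd1-positive cells of liver, 16.3% and 17.1% of those of spleen and 14.1% and 13.7% of those of lymph node. Klrc2 without Klrc1 was found in 10.2% and 8.75% for liver, 8.16% and 6.59% for spleen and 4.91% and 4.79% for lymph node. Both partners were seen in 3.07% to 10.1%. A cell without a UMI may still express the gene, so cells counted with neither partner or with 1 may express more.

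Cells with UMIs of 3 or more of the 6 genes were 12.8% and 14.6% of thinned liver cells, 10.6% and 10.0% of spleen cells and 2.61% and 2.25% of lymph node cells. The product of the single shares would give 7.91% and 9.38%, 5.44% and 4.70%, and 0.371% and 0.295%. Cells with none were 36.5% ± 1.67 for liver, 44.5% ± 1.17 for spleen and 73.7% ± 1.54 for lymph node. The most common single finding was Cd160 alone in spleen (13.9% and 13.3%) and Klrk1 alone in lymph node (7.80% and 7.50%). In liver, Cd160 alone (8.64% and 8.84%) and Klrb1c alone (8.32% and 8.45%) were about equally frequent.

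**Figure D5:**
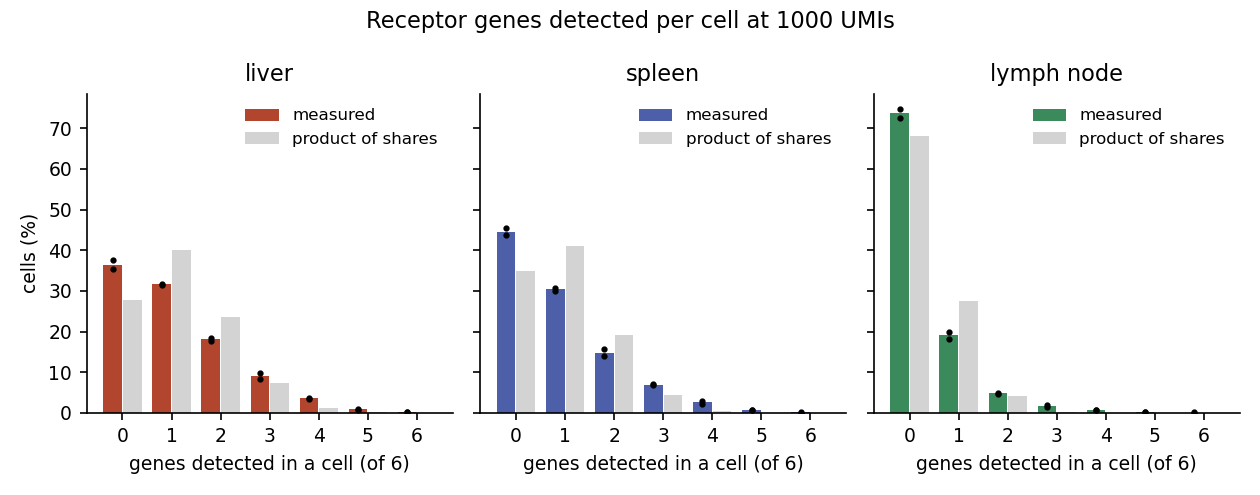
Share of cells (vertical axis, %) by the number of the 6 genes with a UMI after thinning to 1000 UMIs. Coloured bars are means of 2 libraries with points for each, and grey bars are the product of the single-gene shares. In every organ more cells hold 0 and 3 or more genes than the product gives, and fewer hold 1.

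Molecules of some genes were bunched in fewer cells than others. Per thinned cell, the variance of Klrd1 UMIs was 1.59 and 1.68 times the mean for liver, 2.10 and 2.44 for spleen and 2.46 and 2.37 for lymph node, where 1 is the value of evenly spread molecules. For Klrk1 it was 1.70 to 2.09 and for Klrc1 1.57 to 2.10 over the 6 libraries. Cd160 stayed between 1.17 and 1.23 and Klrb1c between 1.18 and 1.47. In liver replicate 1, 24.4% of thinned cells had a Klrk1 UMI, where random (Poisson) placement of the same molecules would give 33.6%. A single cell held up to 21 Klrd1 UMIs before thinning.

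Over 30 sums of 1 class (at resolution 0.5) in 1 library, the other genes most like each of the 6 were ranked by Pearson's r of log2(CPM + 1) among 5858 genes of at least 20 CPM on average, with the 6 themselves left out of the ranking. Klrc1 was most like Nkg7 (r = 0.938), followed by Cxcr3 and Ctsw. Klrb1c (r = 0.912) and Klrc2 (r = 0.877) were both most like Gimap8 among these, followed by Gimap3 and Gimap5, genes of immune GTPases. Klrd1 was most like Il21r (r = 0.878) and Tbx21 (r = 0.872), Klrk1 most like Lfng (r = 0.845) and Lrrk1, and Cd160 most like Gimap7 (r = 0.885) and Slamf7. Between members, Klrb1c and Klrc2 had the highest r (0.891, above that of Klrc2 with Gimap8), Klrk1 had 0.871 with Klrb1c and 0.858 with Klrc2 (both above that with Lfng), and Klrk1 and Cd160 the lowest (0.548). The sums share libraries and classes, so these are descriptions.

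The other genes of these receptor systems were read in lists of relatives, adaptors, ligands and regulators. Of 10 tested relatives, 3 were called higher in liver than in spleen, 7 higher and 1 lower in liver than in lymph node, and 5 higher and 2 lower in spleen than in lymph node. These were 30.0%, 80.0% and 70.0% of the list, against 25.8%, 37.6% and 18.3% of all tested genes. The median log2 fold of the list was 0.46, 1.85 and 1.07. Klre1, the neighbour of Klrd1, had 151 ± 17.2 CPM for liver, 55.6 ± 4.20 for spleen and 11.8 ± 0.19 for lymph node (log2 fold of liver over lymph node 3.63 ± 0.17, edgeR adjusted p = 2.75e-18). Klrb1b was low in spleen (1.34 ± 0.31 CPM) against liver (7.47 ± 0.16) and lymph node (6.03 ± 2.03), with log2 folds of -2.12 ± 0.48 for spleen over lymph node (edgeR adjusted p = 0.00160) and, for liver over spleen, 2.37 ± 0.44 (adjusted p = 0.000159). Ncr1, the natural cytotoxicity receptor, had 5.62 ± 2.55 CPM for liver, 2.02 ± 0.09 for spleen and 0.41 ± 0.59 for lymph node (liver over spleen 1.37 ± 0.49, edgeR adjusted p = 0.0374). Klrb1a, like Klrb1b, was lower in spleen than in lymph node, with 0.55 ± 0.41 CPM in spleen and 5.06 ± 0.27 in lymph node (log2 fold -3.15 ± 0.66, edgeR adjusted p = 0.000607).

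Of 14 tested adaptors and proximal signalling genes, 5 were called higher in liver than in spleen, 7 higher and 2 lower in liver than in lymph node, and 3 higher and 1 lower in spleen than in lymph node. In either direction 35.7%, 64.3% and 28.6% of the list were called, against 25.8%, 37.6% and 18.3% of all tested genes. The list's median log2 fold was 0.31, 0.38 and 0.01. Tyrobp, the DAP12 adaptor used by NKG2C, had 40.0 ± 9.49 CPM for liver, 13.6 ± 1.78 for spleen and 7.95 ± 2.83 for lymph node (log2 fold of liver over lymph node 2.27 ± 0.24, edgeR adjusted p = 1.06e-08). Hcst, the adaptor of NKG2D, was not called between liver and spleen (1541 ± 92.5 and 1598 ± 57.6 CPM, edgeR adjusted p = 0.457) and was lower in lymph node (1018 ± 82.8 CPM, log2 fold of liver over lymph node 0.54 ± 0.12, edgeR adjusted p = 0.00058). Fcer1g had 78.7 ± 21.7, 45.9 ± 10.2 and 19.5 ± 6.50 CPM. Fyn, a Src-family kinase, was higher in liver than in spleen by 0.73 ± 0.12 (edgeR adjusted p = 4.32e-05). Grb2, an SH2 and SH3 domain adaptor, was lower in spleen than in lymph node (62.4 ± 3.47 against 155 ± 8.96 CPM, log2 fold -1.29 ± 0.13, edgeR adjusted p = 9.59e-10).

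Of 11 tested ligands and binding partners, 5 were called higher and 1 lower in liver than in spleen, 6 higher and 1 lower in liver than in lymph node, and 4 higher in spleen than in lymph node. That is 54.5%, 63.6% and 36.4% of the list, where 25.8%, 37.6% and 18.3% of all tested genes were called. Across them the median log2 fold was 0.35, 0.42 and 0.28. H2-Q7, a non-classical class I gene, had 988 ± 84.2 CPM for liver, 420 ± 58.0 for spleen and 204 ± 40.7 for lymph node (log2 fold of liver over lymph node 2.22 ± 0.14, edgeR adjusted p = 2.38e-14). Clec2d, a ligand of a lectin receptor of the Klrb1 family, had 303 ± 5.39, 183 ± 7.31 and 98.5 ± 12.6 CPM. Cd1d1, which presents lipids to iNKT cells, was lower in liver than in spleen (22.3 ± 0.28 against 37.9 ± 5.68 CPM, log2 fold -0.84 ± 0.16, edgeR adjusted p = 0.000251). H2-T23, which encodes the ligand of both CD94 dimers, was called in 1 of 3 comparisons, liver over lymph node (0.35 ± 0.12, edgeR adjusted p = 0.0186). The Cd160 partner Tnfrsf14 had 0 to 8 UMIs per library. Of the 5 NKG2D ligand genes in the list, Raet1d, Raet1e and H60c had 0 UMIs in all 6 libraries, H60b had 0 to 6 and Ulbp1 had 24 to 42 per library.

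Of 10 tested regulators, 3 were called higher in liver than in spleen, 6 higher and 2 lower in liver than in lymph node, and 5 higher and 1 lower in spleen than in lymph node. For liver over spleen this was 30.0% of the list against 25.8% of all tested genes, and in the comparisons with lymph node 37.6% and 18.3% of all tested genes were called. For the regulators the median log2 fold was 0.34, 0.36 and 0.22. Il2rb, the shared receptor chain of interleukin-2 and interleukin-15, had 753 ± 19.6 CPM for liver, 242 ± 49.8 for spleen and 98.2 ± 6.19 for lymph node (log2 fold of liver over spleen 1.57 ± 0.12, edgeR adjusted p = 4.80e-11). Tbx21, which encodes T-bet, had 127 ± 13.1, 86.6 ± 15.2 and 29.0 ± 1.09 CPM (spleen over lymph node 1.60 ± 0.16, edgeR adjusted p = 8.33e-10). Runx3 was higher in liver than in spleen by 0.51 ± 0.12 (edgeR adjusted p = 0.00200). Nfil3 had 3.22 ± 1.05 CPM for liver, 1.87 ± 0.67 for spleen and 16.7 ± 2.06 for lymph node (log2 fold of spleen over lymph node -3.11 ± 0.38, edgeR adjusted p = 1.13e-07).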

How the data were processed

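Per the labels and the study's methods, libraries were made with the 10x Genomics Chromium 3′ v2 kit, and the submitters' processing notes name Cell Ranger 3.1.0, Seurat and mm10. The deposited matrices hold raw UMI counts per gene and barcode, with no normalization, and the deposited gene and barcode lists hold other values, namely identifiers, symbols and barcodes. The annotation version is not given in the sources used here. Kept barcodes had 300 to 4000 genes and at most 15% of UMIs from mitochondrial genes, which removed 55. The limit of 4000 genes, which the study used against potential doublets, was applied here. The study also excluded cells with RNA of both Xist and Y-linked genes. That was not done here, and no other step to remove doublets was run. Left out of totals were 187 ribosomal, ribosomal RNA and haemoglobin genes (24.0% to 35.0% of UMIs).

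Cells were clustered with scanpy 1.11.5 and leidenalg 0.10.2 (3000 variable genes, 20 components, 20 neighbours, resolution 0.5 or 1.0) without Klr genes and Cd160. Clusters were named from marker lists, by thresholds set after the clusters had been seen. TCR constant genes were not analysed here. UMIs were summed per library and tested with edgeR 4.0.16 in R 4.3.3 (filterByExpr, TMM, robust glmQLFit, glmQLFTest, Benjamini-Hochberg over all tested genes, calls at 0.05), with all 6 libraries in 1 fit and organ as the only term, and the script was tested on simulated data. The study's own methods compared cells, and libraries were used here instead because cells are not replicates. Alternatives included DESeq2 1.42.0. Odds ratios had 0.5 added to each count. Thinning left out 9 liver, 313 spleen and 753 lymph node cells under 1000 UMIs. The genes, lists and tests were chosen with earlier results of these data known. The text names the 6 genes, of each list the 2 called genes of largest absolute fold in a comparison, and the genes most like each member. Hcst, H2-T23, Tnfrsf14 and the NKG2D ligand genes, direct partners of the members, were added after their values had been seen.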

Additional observations from a re-analysis of the deposited data

How the results depend on the processing

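Over all cells, the number of the 6 genes called was the same, 6, in every alternative run for both comparisons with lymph node. For liver over spleen it was 4 throughout except 3 without spleen replicate 1 and 5 without the 5% of cells with the most UMIs. No gene changed direction over all cells. Over iNKT1-like cells the results were less stable. Clustering without regression left the class with only 11 and 73 liver and 63 and 40 lymph node cells. It called 0 genes for liver over spleen, 0 for liver over lymph node and 1 for spleen over lymph node, where only 1542 genes could be tested. In that setting the log2 fold was -0.34 for Klrk1 (liver over spleen), -0.47 for Klrc2, -0.69 for Klrd1 and -0.29 for Klrk1 (liver over lymph node), and -0.72 for Klrc2 and -0.20 for Klrd1 (spleen over lymph node). Klrd1 for liver over spleen was 0.05 without liver replicate 1, 0.05 without spleen replicate 2 and 0.03 at Leiden resolution 1.0, against -0.06 (-0.18 to 0.05 when 1 library was left out). Klrc2 for spleen over lymph node was -0.04 without lymph node replicate 2 and 2.96 without lymph node replicate 1. Leaving out 1 library gave 3 to 4 called genes for liver over spleen, 4 to 6 for liver over lymph node and 2 to 5 for spleen over lymph node (2 without lymph node replicate 2).

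DESeq2 called 3, 5 and 3 genes over iNKT1-like cells (9.43%, 4.68% and 2.03% of all tested genes) and 4, 6 and 6 over all cells (14.0%, 25.2% and 11.1%). With the replicate block, 4, 6 and 6 genes were called over all cells (29.8%, 40.7% and 20.8% of tested genes), and 5, 6 and 5 over iNKT1-like cells (25.5%, 6.80% and 3.23%) against 4, 6 and 4. The labels do not say that equal replicate numbers mark paired libraries. Deviations of same-numbered libraries had a Pearson's r of 0.085, 0.083 and 0.068 across 10174 genes, which are not independent replicates. The median log2 fold of all genes against lymph node in iNKT1-like cells was 0.12 with TMM and 0.07 (liver) and 0.05 (spleen) with relative log expression factors. Settings without library scaling, without iNKT17-like cells and with an unnamed cluster added were chosen after seeing the data. With 2 libraries per organ, small differences between liver and spleen may be missed.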
